A study of Mus musculus with 12 samples.

Results

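The genes described here are those named Nduf, which encode the nuclear subunits of respiratory complex I and its dedicated assembly factors. Membership followed the gene name: every row of the deposited matrix whose Ensembl ID mapped to a protein-coding symbol beginning with Nduf, which gave 46 of 39179 rows. Of these, 36 encode subunits of complex I, 8 encode assembly factors (Ndufaf) and 2, Ndufa4 and Ndufa4l2, carry the name although Ndufa4 is a subunit of cytochrome c oxidase. The 36 subunit genes comprise 7 Ndufs and Ndufv genes for the conserved core, 4 other Ndufs and Ndufv genes, 13 Ndufa and Ndufab genes, and 12 Ndufb and Ndufc genes. The members lie on 17 chromosomes. All 46 passed the filter on low values.

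Poly-A RNA was sequenced from prostate tissue of mice aged 4 months whose strain was a hybrid of 129/SvImJ with C57Bl/6J. The study had 6 libraries from wild-type mice and 6 from mice null for the gene under study, and both genotypes had received paraquat, a redox-cycling herbicide. No library from an untreated mouse was used here, so every comparison is between genotypes under paraquat. The labels name no lobe, no pooling and no other allele, and leave unsaid which libraries stem from separate animals. The p-values therefore measure only the spread between these libraries, which may be technical.

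Complex I oxidizes NADH and passes the electrons along a flavin and a chain of iron-sulfur clusters to ubiquinone, which drives proton pumping across the inner mitochondrial membrane. The NADH-binding (N) and ubiquinone-binding (Q) modules form the arm in the matrix, and the membrane arm is built around subunits encoded by mitochondrial DNA, with accessory subunits from the nucleus on both arms. Assembly factors bind intermediates and are absent from the finished enzyme. Complex I is also one of the enzymes that can reduce paraquat.

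Many promoters of respiratory chain genes are known to bind NRF1 or GABP. The 3 shown were picked among members with a match to either motif before the start site, and are not a typical sample. They belong to the Ndufb gene with the lowest level, an Ndufs gene and the assembly factor with the largest difference between genotypes. They are the 250 bases before the start site in RefSeq (GRCm38.p6): Ndufb4 at chr16:37654369-37654618 and Ndufs6 at chr13:73328483-73328732, both on the minus strand, and Ndufaf8 at chr11:120098684-120098933 on the plus strand. Capitals mark matches to the motif of NRF1, a transcription factor of many respiratory chain genes, in Ndufb4 and Ndufs6, and to the ETS motif CCGGAAG bound by GABP-type factors in Ndufaf8, on either strand.
Ndufb4: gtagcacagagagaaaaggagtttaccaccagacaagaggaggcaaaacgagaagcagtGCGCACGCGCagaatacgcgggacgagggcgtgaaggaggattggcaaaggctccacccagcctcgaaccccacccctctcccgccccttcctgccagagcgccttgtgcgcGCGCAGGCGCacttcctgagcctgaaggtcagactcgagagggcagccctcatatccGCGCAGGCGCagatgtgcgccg
Ndufs6: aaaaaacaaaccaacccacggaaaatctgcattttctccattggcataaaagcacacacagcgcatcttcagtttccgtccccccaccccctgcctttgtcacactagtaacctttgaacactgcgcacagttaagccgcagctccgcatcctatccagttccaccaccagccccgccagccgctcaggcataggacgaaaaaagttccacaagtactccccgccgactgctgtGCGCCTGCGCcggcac
Ndufaf8: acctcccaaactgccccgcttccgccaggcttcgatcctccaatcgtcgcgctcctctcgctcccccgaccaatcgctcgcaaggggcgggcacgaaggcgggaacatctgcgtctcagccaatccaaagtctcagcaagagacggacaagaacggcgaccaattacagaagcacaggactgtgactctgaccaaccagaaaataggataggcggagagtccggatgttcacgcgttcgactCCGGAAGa

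Promoter entries were matched for 40 of the 46 members (42 promoters). Within 300 bases, 250 before and 50 after the start site, the NRF1 motif was in 10 of 42 promoters (23.8%), against 4.60% of all 32851 RefSeq promoters of that length. The YY1 motif AAGATGGC was in 8 (19.0%, against 2.75% of all), each time starting within the 50 bases after the start site. The ETS motif was in 6 (14.3%, against 8.86%), the SP1 motif GGGCGG in 22 (52.4%, against 35.66%), and the oestrogen-related receptor motif TCAAGGTCA in 0 (against 0.42%). The median GC content was 59.3% in members and 52.7% in all promoters. The motifs were searched on both strands, no motif contains another, and 21 of 40 members held at least 1 of the NRF1, ETS and YY1 motifs. Ndufb4 held 3 NRF1 matches.

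Estimated depth was 14.8 to 21.7 M reads per library. Within each genotype the libraries fell into 2 sets of closely similar profile, libraries 1 to 3 and libraries 4 to 6, found by clustering the values and not from the labels. For the Nduf members the median SD was 0.0695 within a set and 0.312 between the set means of a genotype. Counting error alone would give 0.0446 if the linear values were read counts, which is an approximation. Genotypes were therefore compared over 12 libraries (limma, 6 against 6) and again over 4 set means (limma, 2 against 2). A gene is called higher or lower at an adjusted p of 0.05 over all 16197 genes tested. Values are log2, and every difference is null minus wild type.

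Prostate luminal markers were at a high level in all libraries, with a summed level of 15.60 to 16.03 in wild-type libraries against 15.16 to 15.56 in null libraries. Over the 12 libraries 2 of the 5 luminal markers were called lower and 2 higher, against 0 by set means. Several lists of markers of other tissues or cell types differed in summed level between genotypes, and others overlapped. The summed level of 7 seminal vesicle secretion genes was 5.62 to 7.80 against 16.78 to 21.42, with 4 of the 6 tested called higher over the set means. That of 5 adipocyte genes was 8.63 to 9.60 against 10.38 to 10.97, with 4 of 4 tested higher over the 12 libraries, 2 of them also by set means, and the brown fat gene Ucp1 at the floor of the table. Basal epithelial genes summed to 11.44 to 11.92 against 12.04 to 12.58, with 3 of 4 called higher over the 12 libraries and 1 by set means. The remaining basal gene, Krt14, was called lower over the 12 libraries (difference −0.59). The sums of smooth muscle (16.40 to 16.72 against 16.03 to 16.62), leukocyte (13.16 to 13.96 against 13.49 to 13.62), skeletal muscle (11.74 to 12.07 against 11.76 to 11.90) and endothelial genes (10.09 to 10.43 against 10.36 to 10.85) overlapped between genotypes. Over the 12 libraries 4 of 5 smooth muscle genes were called lower and 0 higher. Of 5 leukocyte genes 1 (Ptprc, 1.18) was called higher and 0 lower, while Ighm, at 13.49 and 13.46, made up most of the leukocyte sum. Of 3 skeletal muscle genes tested 0 were called. Of 4 endothelial genes 3 were called higher and 1 lower. By set means 0 were called in these lists. The shares of all genes were 31.8% lower and 34.1% higher over the 12 libraries, and 1.93% and 2.15% over the set means. The sum of 5 epididymal genes was 14.23 in null libraries 1 to 3 and 4.28 to 4.98 in the other sets, with Crisp1 at up to 14.25 and the other 4 at the floor. In bulk tissue, fewer cells of a type and less RNA per cell cannot be told apart, and the part of these tissues in the Nduf values was not tested.

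Nduf transcripts were mostly lower in the null. Over the 12 libraries 41 of 46 members were called lower, where 31.8% of all genes were called lower, and 1 was called higher, where 34.1% of all genes were. The median difference was −0.68 over the members and −0.77 over the 36 subunit genes, against 0.05 over all genes tested. No member was called over the set means in either direction, where 1.93% of all genes were called lower and 2.15% higher. The adjusted p over set means ran from 0.0843 to 0.826 among members (limma). At an unadjusted p of 0.05 over set means, 26 of 46 members were lower, against 15.3% of all genes, and 0 were higher. The 6 null libraries lay entirely below the 6 wild-type libraries for 31 members, an ordering seen for 22.7% of all genes, and for 0 members above them, as seen for 21.5% of all genes. Scaling by library totals gave a member median of −0.37 with 24 called lower, and removing the length trend gave −0.34 with 34 called lower. Of the 46 members, 32 lie in the shortest quintile of genes by transcript length, where the median of all genes was −0.41 and 51.6% were called lower.

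**Figure D1:**
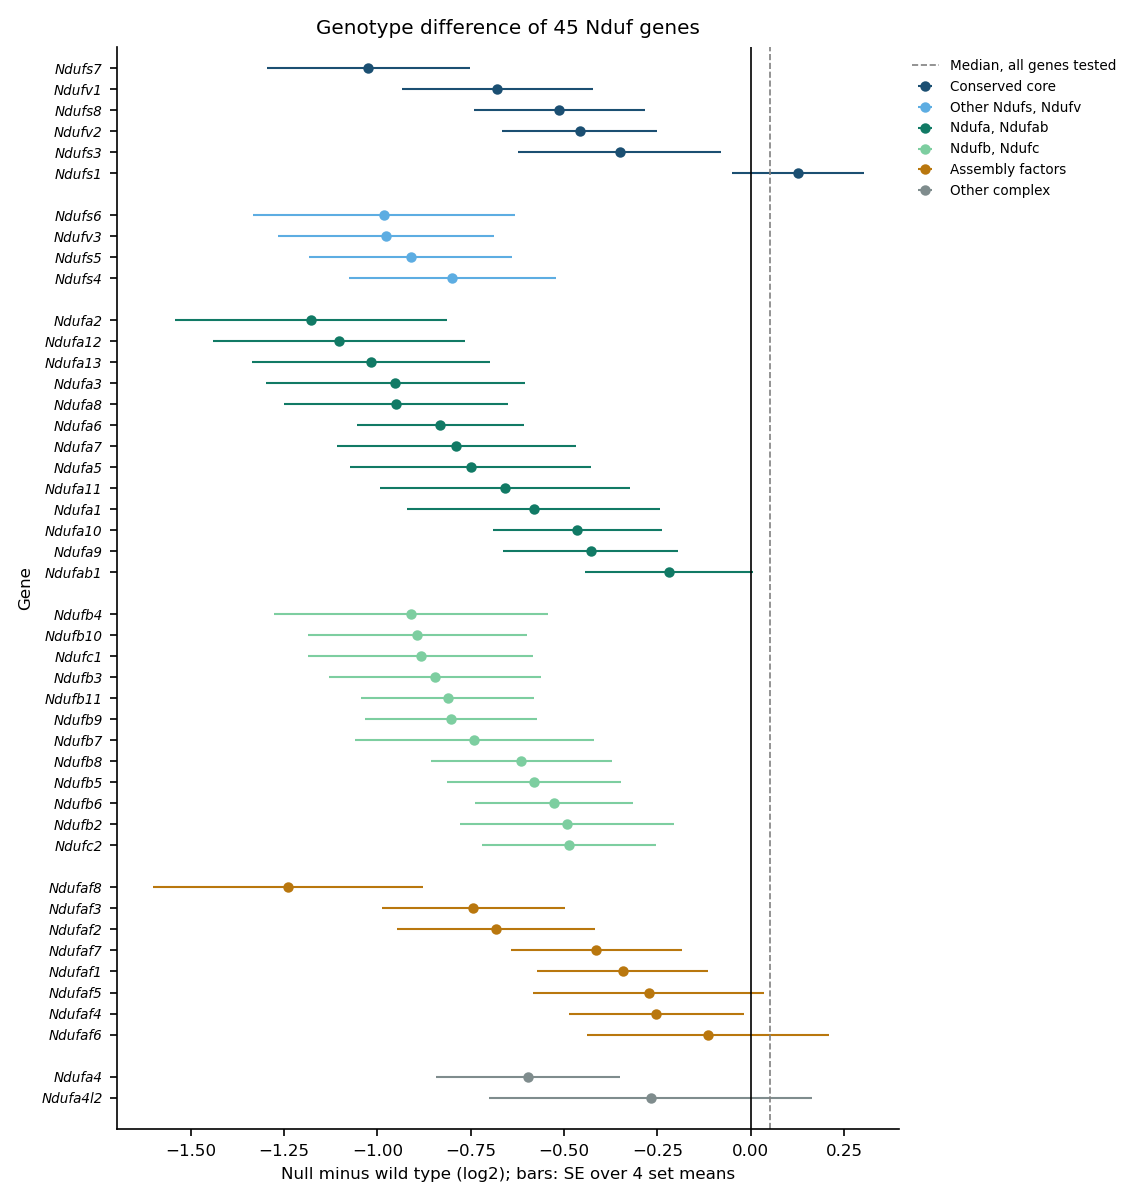
Difference between genotypes (null minus wild type, log2, horizontal axis) for each of 45 Nduf genes, grouped by role, with bars for the SE over the 4 set means and a dashed line at the median of all genes tested. Points run from −1.24 for Ndufaf8 to 0.13 for Ndufs1, and all others lie left of 0.

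Among the core subunits, 6 of 7 were called lower over the 12 libraries (31.8% of all genes) and 1 higher (34.1% of all genes). Their median difference was −0.50. The genotypes were separated, with all null libraries lower, for 5 of the 7, against 22.7% of all genes. Among the 5 were Ndufs7, Ndufv1, Ndufs8 and Ndufv2. Ndufs7 (ENSMUSG00000020153, chromosome 10, 80249121 to 80256794, GRCm38), which holds the last iron-sulfur cluster before ubiquinone, had wild-type values of 10.59, 10.92 and 11.43 (lowest, median, highest) and null values of 9.69, 9.95 and 10.14. All null libraries lay below all wild-type libraries. The difference was −1.02 with an SE over set means of 0.27, so that the null level was 0.492 times that of wild type (limma adjusted p = 9.4e-05 over 12 libraries and 0.0843 over set means).

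Ndufv1, which binds NADH and the flavin, was at 10.91, 11.20 and 11.68 in wild type and at 10.37, 10.56 and 10.76 in the null. Its difference was −0.68 (SE over set means 0.26, limma adjusted p = 0.000871 over 12 libraries and 0.139 over set means). Ndufs8 and Ndufv2, which carry iron-sulfur clusters, differed by −0.51 and −0.46. Ndufs3, a core subunit without a cofactor, differed by −0.35 with overlapping genotypes.

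Ndufs1 (ENSMUSG00000025968, chromosome 1, 63143596 to 63176833), the largest core subunit and the carrier of several iron-sulfur clusters, was the exception. It was at 9.85, 9.89 and 10.00 in wild type and at 9.93, 10.06 and 10.10 in the null, so that the genotypes overlapped. The difference was 0.13 (SE over set means 0.18, 1.09 times wild type), with a limma adjusted p of 0.0470 over 12 libraries and 0.639 over set means. The call over 12 libraries was lost on leaving out any of 9 of the 12 libraries, where the limma adjusted p was up to 0.0947.

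The other 4 Ndufs and Ndufv genes encode accessory subunits that in large part sit on the N module. All 4 were called lower over the 12 libraries (31.8% of all genes), with a median difference of −0.94. For each, all null libraries lay below all wild-type libraries, as for 22.7% of all genes. Ndufv3 was at 10.91, 11.32 and 11.88 in wild type and at 10.19, 10.39 and 10.53 in the null. Its difference was −0.98 (SE over set means 0.29, limma adjusted p = 0.000253 over 12 libraries and 0.0984 over set means). Ndufs5, an accessory subunit on the intermembrane face of the membrane arm, was at 8.42, 8.77 and 9.02 against 7.63, 7.76 and 8.07, a difference of −0.91 (SE 0.27). Ndufs4, needed for stable attachment of the N module and mutated in Leigh syndrome, was at 9.98, 10.39 and 10.89 against 9.44, 9.62 and 9.77. That difference, −0.80 (SE 0.28, adjusted p over set means 0.124 by limma), was the nearest to 0 of the 4. Ndufs6, a zinc-binding subunit added late with the N module, differed by −0.98.

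**Figure D2:**
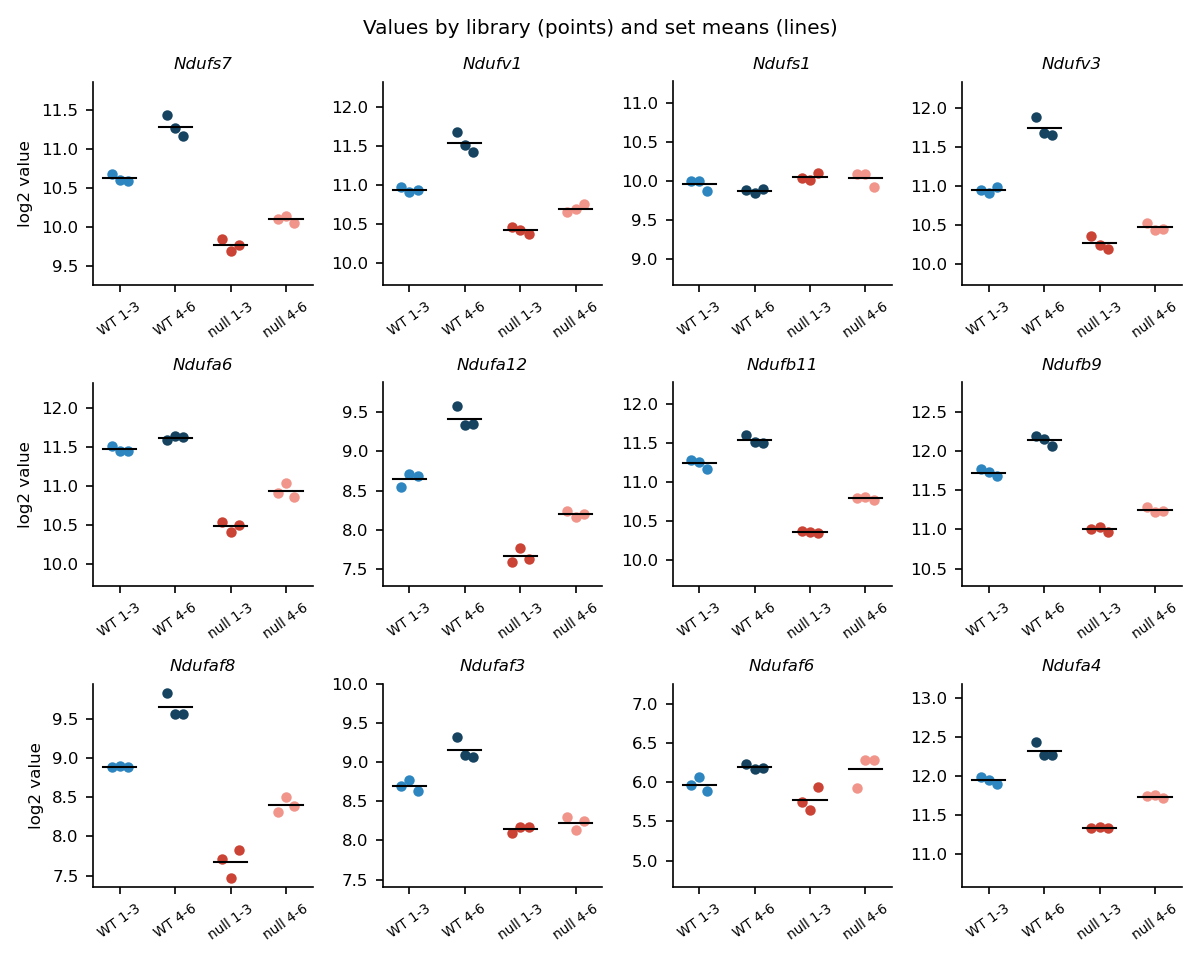
Log2 values (vertical axis, each panel spanning 2.6 units) of 12 Nduf genes in each library, as points coloured by set of 3 libraries, with black lines at the set means. In 10 of the 12 panels both null sets lie below both wild-type sets, the exceptions being Ndufs1 and Ndufaf6.

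Of the 13 Ndufa and Ndufab genes, 12 were called lower over the 12 libraries (31.8% of all genes) and 0 higher (34.1%). Their median difference was −0.79. For 9 of them all null libraries lay below all wild-type libraries, against 22.7% of all genes. Ndufa6 (ENSMUSG00000022450, chromosome 15, 82350140 to 82354322), an LYR-motif protein that anchors the acyl carrier protein Ndufab1 to the matrix arm, was at 11.44, 11.55 and 11.63 in wild type and at 10.41, 10.70 and 11.04 in the null. Its lowest wild-type library was above its highest null library. The difference was −0.83 (SE over set means 0.22, limma adjusted p = 2.22e-05 over 12 libraries and 0.0854 over set means).

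Ndufa12, which takes the place of the assembly factor Ndufaf2 as the matrix arm is finished, was at 8.55, 9.03 and 9.58 in wild type and at 7.59, 7.97 and 8.24 in the null. The difference was −1.10 (SE 0.34, limma adjusted p over set means 0.102), and −0.67 with its pseudogene copy summed. Ndufa2, a thioredoxin-fold subunit of the N module, was at 11.12, 11.63 and 12.27 against 10.05, 10.49 and 10.92, a difference of −1.18 (SE 0.36) that was the largest of any subunit. Ndufab1, the mitochondrial acyl carrier protein, which also serves fatty acid synthesis outside complex I, was the nearest to 0 in its group as listed, though not once its pseudogene copies were summed (−0.44). It was at 8.87, 8.998 and 9.17 against 8.60, 8.78 and 9.02, overlapping, with a difference of −0.22 (SE 0.23, limma adjusted p = 0.0560 over 12 libraries and 0.519 over set means). The other 9 members of the group lay between −1.02 (Ndufa13) and −0.43 (Ndufa9).

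All 12 Ndufb and Ndufc genes, whose products belong to the membrane arm, were called lower over the 12 libraries (31.8% of all genes). Their differences spanned the narrow range from −0.91 to −0.49 with a median of −0.77. Ndufb11, an X-linked gene, was at 11.17, 11.39 and 11.60 in wild type and at 10.35, 10.58 and 10.81 in the null, without overlap. Its difference was −0.81 (SE over set means 0.23, limma adjusted p = 4.53e-05 over 12 libraries and 0.0936 over set means). Ndufb9, an LYR-motif protein that holds a further copy of Ndufab1, was at 11.68, 11.92 and 12.19 against 10.97, 11.13 and 11.29, a difference of −0.80 (SE 0.23). Ndufb10 was at 11.09, 11.48 and 11.90 against 10.33, 10.57 and 10.87, a difference of −0.89 (SE 0.29). The smallest difference was that of Ndufc2, −0.49 (SE 0.23, limma adjusted p over set means 0.204), at 10.40, 10.80 and 11.05 against 10.02, 10.25 and 10.60, with overlap. Ndufb4, whose promoter with 3 NRF1 matches is printed above, was the subunit gene with the lowest wild-type mean, 6.33, and differed by −0.91.

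Sorted by the assembly module of their products instead of by name, the subunit genes had medians of −0.82 for the N module (10 genes), −0.51 for the Q module (6), −0.95 for the part of the membrane arm around ND1 (4), −0.66 around ND2 (5), −0.81 around ND4 (5) and −0.68 around ND5 (6). Within the Q module Ndufs7 differed by −1.02 and the other 5 by −0.75 to −0.35.

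The 8 assembly factor genes had a median nearer to 0 than the subunits, a contrast that was not tested. Under quantile normalization the medians were closer to each other, −0.54 for assembly factors and −0.61 for subunits. Over the 12 libraries 6 of the 8 assembly factors were called lower (31.8% of all genes) and none higher (34.1% of all genes). Their median difference was −0.38, with a range from −1.24 to −0.11. By set means 0 were called, and with the set as a random block 2 were called lower, where 17.08% of all genes were. For 3 of the 8 all null libraries lay below all wild-type libraries, against 22.7% of all genes. Ndufaf8 (ENSMUSG00000078572, chromosome 11, 120098928 to 120100705), a partner of the hydroxylase Ndufaf5 that modifies Ndufs7, had the largest difference of all 46 members. Its wild-type values were 8.88, 9.23 and 9.84 and its null values 7.47, 8.07 and 8.50, without overlap. The difference was −1.24 (SE over set means 0.36, 0.423 times wild type, limma adjusted p = 0.000331 over 12 libraries and 0.0966 over set means).

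Ndufaf3, which together with Ndufaf4 assists the early matrix arm, was at 8.63, 8.92 and 9.32 in wild type and at 8.09, 8.17 and 8.30 in the null, a difference of −0.74 (SE 0.24, limma adjusted p over set means 0.115). Its partner Ndufaf4 differed by −0.25. Ndufaf2, the chaperone exchanged for Ndufa12, was at 8.27, 8.46 and 8.83 against 7.47, 7.80 and 8.10, a difference of −0.68 (SE 0.27). Ndufaf7, a protein arginine methyltransferase of the matrix, differed by −0.41, and Ndufaf1, a member of the intermediate assembly complex, by −0.34. Ndufaf5 differed by −0.27 (limma adjusted p over 12 libraries 0.163). Ndufaf6 was at 5.89, 6.12 and 6.24 against 5.64, 5.93 and 6.29 and overlapped, with a difference of −0.11 (SE 0.32, limma adjusted p = 0.475 over 12 libraries and 0.826 over set means). Per kilobase of transcript, wild-type levels had a median of 8.01 for assembly factors (5.97 to 9.63) and 10.54 for subunits (6.29 to 12.89).

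The 2 remaining Nduf genes were Ndufa4 and Ndufa4l2. Ndufa4 was at 11.89, 12.12 and 12.43 in wild type and at 11.33, 11.53 and 11.75 in the null, without overlap, a difference of −0.60 (SE 0.25, limma adjusted p = 0.000704 over 12 libraries and 0.161 over set means). Its hypoxia-inducible paralogue Ndufa4l2 was at 4.45, 4.86 and 5.23 against 3.83, 4.64 and 5.24, a difference of −0.27 (SE 0.43, limma adjusted p = 0.344 over 12 libraries and 0.685 over set means). The genotypes of Ndufa4l2 overlapped fully.

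The size of the difference depended on which sets were set side by side. The median over the 36 subunit genes was 10.48 to 10.56 in wild-type libraries 1 to 3, 10.87 to 10.97 in wild-type libraries 4 to 6, 9.81 to 9.86 in null libraries 1 to 3, and 10.21 to 10.26 in the other null set. All 6 null libraries thus lay below all 6 wild-type libraries. Within a genotype, libraries 4 to 6 exceeded libraries 1 to 3 by a median of 0.54 for wild type and 0.37 for the null. The 4 pairings of a null with a wild-type set gave subunit medians of −0.26 (null 4 to 6 against wild type 1 to 3), −0.67, −0.86 and −1.26 (null 1 to 3 against wild type 4 to 6), while those of all genes were 0.01 to 0.05. Both null sets were below both wild-type sets for 39 of 46 members, against 32.4% of all genes. The 7 others were Ndufs1, Ndufs3, Ndufa1, Ndufab1, Ndufaf5, Ndufaf6 and Ndufa4l2.

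**Figure D3:**
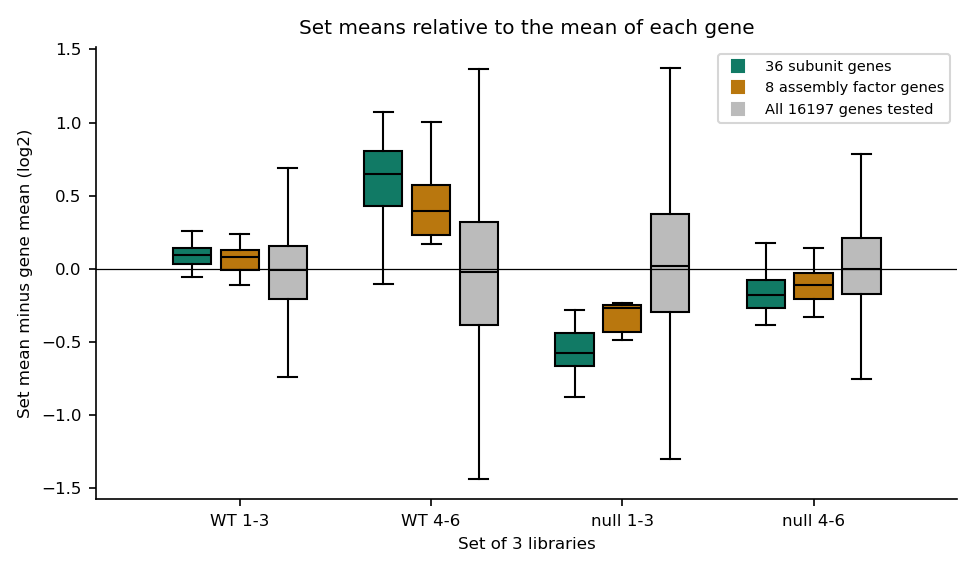
Set mean minus the mean of the gene over the 4 sets (log2, vertical axis) for the 36 subunit genes, the 8 assembly factor genes and all 16197 genes tested, as boxes (median and quartiles, whiskers to 1.5 times the interquartile range, points beyond not drawn) for each set of 3 libraries. The boxes of the subunits are lowest in null libraries 1 to 3 and highest in wild-type libraries 4 to 6, and those of all genes centre near 0.

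The marker levels differed between the same sets. The epididymal sum was high only in null libraries 1 to 3, as given above. The seminal vesicle sum was 7.59 and 5.81 in the wild-type sets, 21.41 in null libraries 1 to 3 and 16.80 in the remaining null set. For the luminal sum the wild-type sets were at 15.61 and 15.98, the null sets at 15.16 and 15.55. Without wild-type libraries 4 to 6 the subunit median was −0.49 and 25 of 36 subunit genes were called lower over the remaining libraries (limma), against 26.64% of all genes. Without null libraries 1 to 3, in which the seminal vesicle sum was highest, the values were −0.54 and 24 of 36, against 27.25% of all genes. Leaving out null libraries 4 to 6 gave a subunit median of −0.96. Over set means this leaves 2 sets against 1, and the lone null set is assumed to vary like the wild-type sets.

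Transcript length went with the difference across the whole table. The Spearman correlation between transcript length and difference was 0.39 over all 16197 genes and 0.386 over the 36 subunit genes. Genes without an annotated length were ranked as the shortest in the correlation over all genes. Genes are not independent, and all points share the same libraries. In quintiles by length of all genes with an annotated length, the median difference was −0.41 in the shortest (median 884.5 bases), −0.16, 0.01, 0.20 and 0.50 in the longest (6184 bases). Of the 46 members, 32 fell in the shortest quintile. In that quintile 51.6% of genes were called lower over the 12 libraries. The median length was 939.5 bases for subunits, 1308 for assembly factors and 1623 for the core. Ndufs1, the core subunit that was not lower, has 2661 bases. With the length trend removed in each library, the subunit median was −0.35, that of assembly factors −0.23 and that of all genes 0.01, and 34 of 46 members were called lower over the 12 libraries, against 32.5% of all genes. The same trend was present between sets of 1 genotype: in wild type, libraries 4 to 6 exceeded libraries 1 to 3 by 0.34 in the shortest quintile and by −0.23 in the longest. The part of length in the Nduf differences was not tested further.

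**Figure D4:**
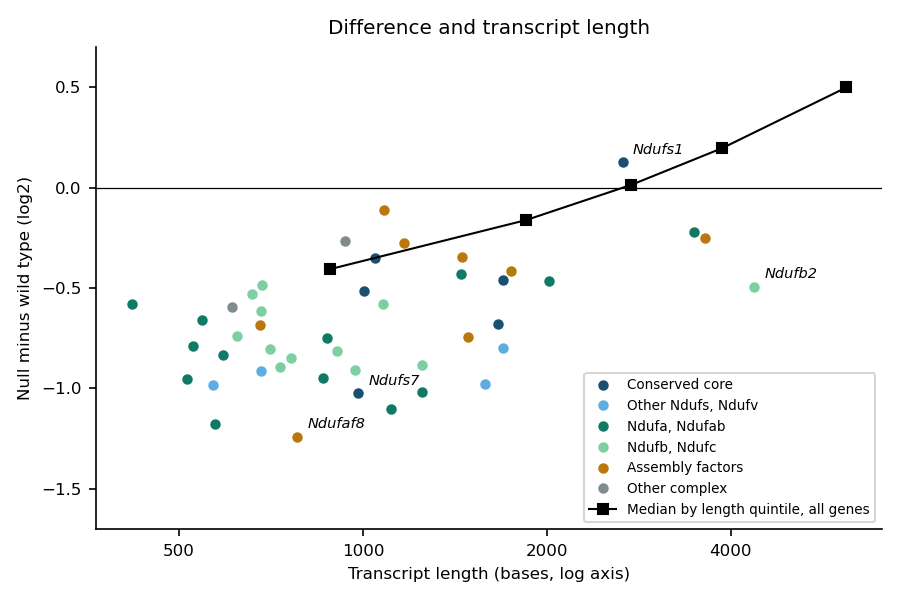
Difference between genotypes (null minus wild type, log2, vertical axis) against transcript length in bases (log axis) for 45 Nduf genes, coloured by role, with black squares joined by a line for the median of each length quintile of all genes tested. The line climbs from −0.41 to 0.50, and most subunits lie below it.

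Reads of 8 of the 46 members could have been shared with an annotated pseudogene, a copy at least 95% identical over at least 100 bases of transcript. In 6 cases such a copy was listed at 4 or more. Gm12251, a copy of Ndufs3, had a wild-type mean of 10.56 and a null mean of 9.92, above those of Ndufs3 itself, 8.89 and 8.54, so that 70.6% to 78.5% of the summed signal was listed under the copy. Summing both changed the Ndufs3 difference from −0.35 to −0.56 (limma adjusted p = 0.00720 over 12 libraries and 0.218 over set means). For Ndufa12 and its copy Gm15920 the sum changed the difference from −1.10 to −0.67, and for Ndufab1 with 2 copies from −0.22 to −0.44. After summing, Ndufab1 was called lower over the 12 libraries (limma adjusted p = 0.00227).

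The other sums moved little. The differences of Ndufs5, Ndufs6 and Ndufb11 were −0.89, −0.95 and −0.80 with their copies, and that of Ndufb4 was −0.81. With all copies summed, 42 of 46 members were called lower over the 12 libraries, 1 higher, and 0 over the set means. How the authors' counting treated reads that match several places has no statement in the sources used here, and the levels of these 8 members are therefore uncertain. Exons of 17 members overlap a gene on the opposite strand, whose reads cannot be told apart if strand was not used, and exons of 3 overlap a gene on the same strand.

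**Figure D5:**
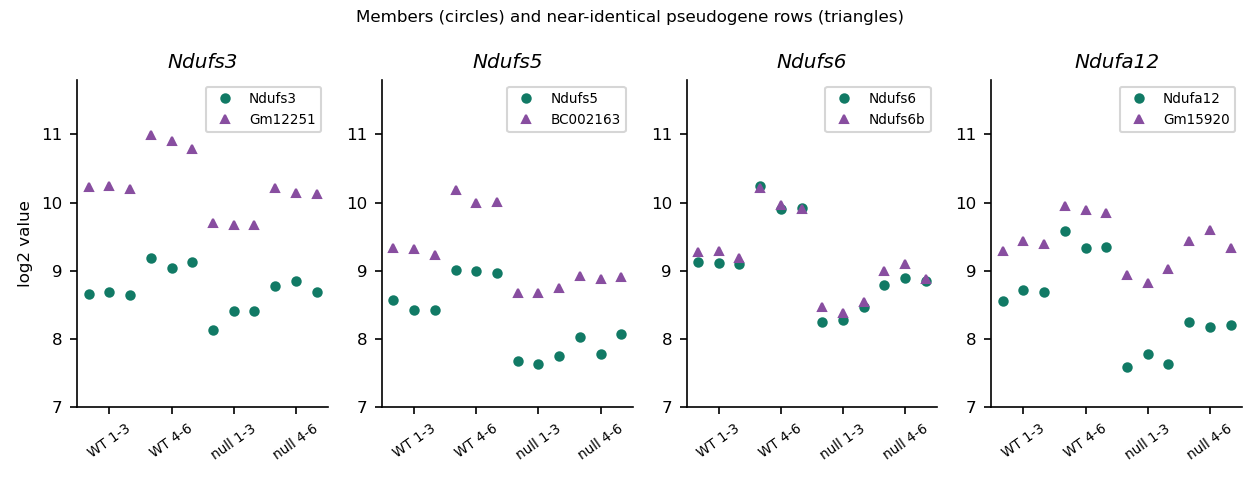
Log2 values (vertical axis) in each of the 12 libraries, ordered by set along the horizontal axis, for Ndufs3, Ndufs5, Ndufs6 and Ndufa12 (circles) and the near-identical pseudogene row of each (triangles). The triangles lie above the circles in all libraries for Ndufs3, Ndufs5 and Ndufa12, and close to them for Ndufs6.

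Complex I needs further assembly factors without the Nduf name. Of 13 such genes tested, 8 were called lower over the 12 libraries and 1 (Lyrm2) higher, where 31.8% and 34.1% of all genes were. By set means 0 were called, and the median difference was −0.31 against 0.05 over all genes. Dmac1, a factor for the distal membrane arm, had a wild-type mean of 9.41 and a null mean of 8.46 (difference −0.96, SE over set means 0.31, limma adjusted p over set means 0.115). Tmem70, also an ATP synthase assembly factor, differed by −0.59 and Ecsit by −0.60. Chchd4, which oxidizes the twin-cysteine subunits during import, differed by −0.76. Acad9, the partner of Ecsit and Ndufaf1, differed by 0.07, within its SE of 0.19.

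The subunit genes of mitochondrial DNA had a median near 0. Of the 5 mt-Nd genes tested, 1 was called lower (mt-Nd4, −0.32) and 1 higher (mt-Nd5, 0.87) over the 12 libraries. The shares of all genes were 31.8% lower and 34.1% higher. By set means 0 mt-Nd genes were called, and their median was −0.05. The difference of mt-Nd5 had an SE over set means of 0.46 (limma adjusted p 0.237). The set means of mt-Nd1 were 15.68 and 15.77 in wild type and 15.79 and 15.82 in the null. Poly-A selection captures mitochondrial transcripts unevenly, and mt-Nd3 and mt-Nd4l were at the floor. The difference between the nuclear and the mitochondrial subunit genes was not tested.

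Regulators of mitochondrial biogenesis went both ways, 3 lower and 4 higher of 12 over the 12 libraries and 0 by set means, at a median of 0.00. The coactivator gene Ppargc1a had a wild-type mean of 6.24 and a null mean of 7.18, a difference of 0.93 (SE over set means 0.29, limma adjusted p = 1.2e-05 over 12 libraries and 0.103 over set means). Ppargc1b differed by 0.93 from a lower level, with a limma adjusted p of 0.150 over set means. Tfb1m, the mitochondrial ribosomal RNA methyltransferase, differed by −0.69, and Esrra, which encodes oestrogen-related receptor alpha, by −0.38. Nrf1, whose motif was counted in the promoters, was at 8.85 and 8.81. Markers of mitochondrial content were called lower in 6 of 6 genes over the 12 libraries, where 31.8% of all genes were, and in 0 by set means, with a median of −0.44, from −0.68 for the outer-membrane channel Vdac3 to −0.22 for citrate synthase (Cs). Vdac1 differed by −0.58, the chaperone Hspd1 by −0.66 and the import receptor Tomm20 by −0.31.

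The nuclear genes of the other respiratory complexes had medians near that of the complex I subunits. These were −0.78 for complex II (3 of 4 called lower over the 12 libraries), −0.74 for complex III (9 of 9), −0.80 for complex IV (9 of 10) and −0.64 for the ATP synthase (14 of 15), with 0 higher in each. The shares of all genes were 31.8% lower and 34.1% higher. Among the 38 genes of these complexes only Sdhc, a membrane anchor of complex II, was also called over the set means. Lower calls there made up 1.93% of all genes. Sdhc fell by 1.02 (means 11.64 and 10.63, limma adjusted p over set means 0.0445). Sdha, the flavoprotein of complex II, was at 12.13 and 12.07. Among these 38 genes and the 36 complex I subunit genes, Sdha (−0.064), Ndufs1 (0.13) and Cox6c (−0.17) had the differences nearest to 0, an observation made after seeing their values.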

How the data were processed

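The deposited matrix holds log2 values, 1 per gene and library, which the authors had already normalized between libraries; the table runs from −0.28 to 21.24, and 7 empty columns were ignored. Per the labels' protocols, RNA was extracted with a MagMAX kit, selected for poly-A and prepared with TruSeq for a HiSeq2000. Builds mm9 and GRCm38.p2 are listed in the submitters' processing notes, with DESeq, Cufflinks, TopHat and CASAVA 1.8.2 as tools, in no stated role. Read layout, strand setting and multi-mapping are not given in the sources consulted. On the linear scale, values of 2400 to 5800 were checked (819 to 1031 per library). Within 0.1, 100% of them were whole multiples of a unit per library. Of the lower values checked, only 18.5% to 21.2% were. Counts could thus not be recovered, and the totals of 14.8 to 21.7 M reads are estimates. A count test was therefore not run.

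Of the IDs, 37693 (96.2%) matched GENCODE M21 (GRCm38), from which the gene positions come. Genes reaching 4 in at least 6 libraries were tested in R 4.3.3 by limma 3.58.1 (two-sided, with a mean-variance trend, Benjamini-Hochberg over all tested genes), on the 12 libraries and on the means of the sets. The sets came from average-linkage clustering on 1 minus correlation, 2 per genotype. SEs in the text are those of the fit to set means unless stated. Scripts were tested on simulated data. Near-identical copies were found with blastn 2.17.0. Lengths are those of the longest APPRIS principal transcript, or of the longest transcript where a gene had no principal one.

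The members and gene lists were chosen with earlier results of these data known. The genes named in full are, in each role group, the 3 with the lowest p over set means, the nearest to 0 and any called higher, with up to 4 per list; others are named to complete a group. Marker lists are described by their summed level on the linear scale, given as log2. Alternatives covered scaling, filters, a damped log2 scale, array weights, thresholds, the set as a random block, the length trend, each library and each set left out. Summing the copies was added after seeing the data. The targeted gene and 1 member, which stays in the counts and medians, are not reported singly here.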

Additional observations from a re-analysis of the deposited data

Results flagged for a closer look

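In the 92 groups of 6 libraries tested (46 members, 2 genotypes), 2 held a library set apart from the rest by Dixon's criterion. Chance gives about 1 in 20 for 6 values of the same distribution. That rate may not apply here, because each group holds 2 sets whose gap widens its range and can hide a deviating library. Ndufaf1 was at 7.985 in wild-type library 3, with the nearest wild-type library at 8.282. Ndufaf5 was at 7.341 in null library 5, with the nearest null library at 6.761. Without null library 5 the Ndufaf5 difference was −0.38 and was called over the 12 libraries (limma adjusted p = 0.0435).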

How the results depend on the processing

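Of the 46 members, 41 were called lower over the 12 libraries, and between 29 and 43 were under every alternative except scaling by library totals, which gave 24 members, 20 subunits and 3 assembly factors, a median of −0.37, and positive differences for Ndufab1 (0.10), Ndufaf4 (0.062), Ndufaf5 (0.041), Ndufaf6 (0.20) and Ndufa4l2 (0.047). Library totals moved the median of all genes from 0.05 to 0.37 and the share of genes called to 16.1% lower and 53.2% higher; without the 50 most abundant genes it was 0.20, with Ndufaf6 at 0.034. Both scalings shift all genes of a library alike. They therefore leave the subunit median less that of all genes at −0.82 by construction. Under quantile normalization it was −0.57 for subunits and −0.50 for assembly factors, against −0.43 for assembly factors in the main fit. With the length trend removed the member median was −0.34, and Ndufs3 (0.018), Ndufaf5 (0.068), Ndufaf6 (0.25) and Ndufa4l2 (0.13) turned positive. The call of 1 member (Ndufs1) as higher became 0 with no filter, array weights, an adjusted p of 0.01, a minimum difference of 0.5, the set as a random block, and without wild-type libraries 4 to 6, null libraries 1 to 3 or null libraries 4 to 6. Assembly factors called lower numbered 2 with the set as a random block. They numbered 3 with a minimum difference of 0.5, without wild-type libraries 4 to 6 or without null libraries 1 to 3. In that order, the shares of all genes called lower were 17.08%, 20.2%, 26.64% and 27.25%. Under quantile normalization 8 assembly factors were called lower, where 34.32% of all genes were, against 6 in the main fit. Without null libraries 1 to 3 Ndufaf6 was at 0.082. Without null libraries 4 to 6 Ndufa4l2 was at 0.21 and 16 members passed over the set means, against 0 in the other fits to set means. Without wild-type libraries 4 to 6 only 6 of all genes tested were called over the set means, and 1 member was lower at an unadjusted p of 0.05, against 26 with all sets.

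Leaving out each library in turn gave 39 to 43 members called lower, 0 to 1 higher and a median of −0.75 to −0.60. No paired analysis was possible because the labels give no replicate numbers and name no shared animal or batch. The random block could not be applied to the set means. The lower values that were checked for whole reads lie off that scale, but they are well above the filter. The precision of genes near the filter, such as Ndufa4l2, was not assessed.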

Other observations

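Among members reported singly, Ndufa6, Ndufb6, Ndufaf4 and Ndufs1 each had wild-type set means less than 0.15 apart. They differed between genotypes by −0.83, −0.53, −0.25 and 0.13. The null set means were 10.48 and 10.94 for Ndufa6, and 8.67 and 8.98 for Ndufb6. Over the 36 subunit genes, the wild-type set difference and the genotype difference had a Spearman correlation of −0.68. Both quantities use the same wild-type values. Per kilobase of transcript, the highest wild-type level among subunit genes was that of Ndufa1, at 12.89, and the lowest that of Ndufb2, at 6.29. The rank of Ndufb2 rests on the transcript of 4371 bases taken for it. Its wild-type mean before scaling by length was 8.415, above the 6.33 of Ndufb4. Among rows named Nduf that are processed pseudogenes and not members, Ndufa11b was at a mean of 8.20 in wild-type libraries and 7.69 in null libraries.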
